A study of Mus musculus with 9 samples.

Results

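Trp53, which encodes the transcription factor p53, and 33 genes that regulate it or are its targets were followed in the RNA of mouse blood stem and progenitor cells. The 34 genes were taken as a list of symbols, and each symbol matched 1 Ensembl identifier among the 39179 gene rows of the count table. All 34 passed the filter on low counts, as did 18576 genes in all. By role the list holds Trp53 with its inhibitors Mdm2 and Mdm4, 8 genes of cell cycle arrest and feedback, 6 of stress response, metabolism and redox control, 9 of apoptosis and death receptors, 5 of DNA repair and nucleotide supply, and 3 mitotic or ribosomal genes.

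The cells were LSK cells (lineage-negative, Sca1-positive and cKit-positive), sorted from the bone marrow of C57BL/6 mice aged 6 months after magnetic depletion of lineage-positive cells. Poly(I:C), which mimics viral RNA, had been injected 5 times into the mice of every group; it raises interferon and thereby switches on Cre recombinase under the Mx1 promoter. Wild-type mice (Dnmt3a+/+, wt_Mx+) carried Mx1-Cre and gave 3 libraries, and mutant mice (Dnmt3a+/m, cKI_Mx+) carried Mx1-Cre with a conditional allele that expresses mutant Dnmt3a at its own locus and gave 4. Cre-negative mice (cKI_Cre-, with the genotype given as Dnmt3a+/-) carried that allele without Cre and gave 2, so their difference from wild type joins the allele with the absence of Cre. Library names here join a group (wt for wild type, cKI for mutant, neg for Cre-negative) to the number that ends its title, as in wt-820. The labels do not say whether each library is 1 animal, so p-values measure the spread between these libraries.

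The p53 protein is kept scarce in unstressed cells, because Mdm2 binds it, marks it for degradation and is itself a p53 target, while Mdm4 blocks its activity. DNA damage kinases release p53 from this loop, and it then binds response elements made of a pair of decamers near genes that halt the cell cycle, repair DNA, adjust metabolism or start apoptosis. In blood stem cells p53 is known for roles in quiescence and in the response to irradiation and chemotherapy. Most of this control acts on the protein, so transcript levels of Trp53 do not report its activity, and several of the targets are also induced by other signals.

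Matches to the p53 consensus near the start of members are shown first, since p53 acts on its direct targets through such elements. RefSeq windows of 300 bases (250 before and 50 after each start, GRCm38.p6) were held for 26 of the 34 genes. A match to the p53 consensus, with both decamers joined without a spacer and at most 1 mismatch over 20 bases, occurred in 3 of these 26 genes (Ccng1, Cdkn1a and Rps27l) and in 0.107% of 27025 genes. With at most 2 mismatches the counts were 4 of 26, with Ckap2 added, and 0.940% of all genes. The consensus reads alike on both strands. The 6 letters ACATGT, the centre of a strong decamer, stood in the windows of 3 members (Cdkn1a, Phlda3 and Ckap2) and of 6.14% of all genes. In the sequences below, printed 5′ to 3′ along the gene, capitals mark the 20 matched bases. The Cdkn1a stretch (chr17:29090853-29090952, plus strand) and the Ccng1 stretch (chr11:40755422-40755521, minus strand) lie before the gene, as does that of Ckap2 (chr8:22185963-22186062, minus strand). The Rps27l stretch (chr9:66946221-66946320, plus strand) precedes a second start and lies inside the gene, outside its annotated exons.
Cdkn1a: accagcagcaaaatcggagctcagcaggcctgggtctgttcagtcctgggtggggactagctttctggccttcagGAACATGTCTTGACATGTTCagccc
Ccng1: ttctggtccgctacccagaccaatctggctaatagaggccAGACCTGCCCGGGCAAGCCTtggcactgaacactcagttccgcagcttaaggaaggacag
Rps27l: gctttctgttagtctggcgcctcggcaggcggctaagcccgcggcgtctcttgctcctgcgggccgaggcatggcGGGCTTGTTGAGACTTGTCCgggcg
Ckap2: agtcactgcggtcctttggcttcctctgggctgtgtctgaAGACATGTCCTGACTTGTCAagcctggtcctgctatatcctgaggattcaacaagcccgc
The matched bases end 31 bases before the annotated start in Cdkn1a and 175, 97 and 183 bases before it in Ccng1, Rps27l and Ckap2. A match describes letters in the window only, and binding was not measured. Elements outside the windows, or with a spacer between the decamers, were not searched. A gene without a match, such as Mdm2, may therefore still be a direct target.

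Counts assigned to genes ranged from 47792306 to 58405879 per library. Dnmt3a, the targeted gene, stood between 148 and 173 CPM (a gene's reads relative to the library's reads on genes, scaled to a fixed total) in the 7 wild-type and mutant libraries and at 118 and 93.5 CPM in the Cre-negative libraries neg-780 and neg-819. The LSK marker Kit ranged from 369 to 539 CPM and Ly6a, which encodes Sca1, from 27.2 to 44.2 CPM. The 2 Cre-negative libraries stood apart from the rest and from each other: of all genes tested, 39.9% had their highest or lowest value in library neg-780 and 43.0% in library neg-819. The summed level of 8 erythroid markers was 2314 CPM in library neg-819 and 243 to 423 CPM in the other libraries, with the red cell carbonic anhydrase gene Car1 at 1442 CPM there. The globin genes of that list, Hba-a1 and Hbb-bs, stood at 0.421 and 3.10 CPM in neg-819. Both were highest in wt-823 (1.02 and 21.2 CPM). The summed level of 15 immediate early genes, which respond within minutes to growth factors and cell handling, was 483 CPM in library neg-780 and 129 to 305 CPM elsewhere. Y-linked transcripts were present in 5 libraries and near 0 in 4, with both kinds in each group.

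Levels were compared between genes per kilobase of exon (CPM per kilobase, mean over 9 libraries). The most abundant was Rps27l, a ribosomal protein paralog, at 133, followed by Ccng1, the cyclin G1 gene, at 46.3, Sesn1, a sestrin of nutrient sensing, at 41.8, and Xpc, which detects bulky DNA lesions, at 32.2. Reads that Rps27l shares with its paralog Rps27 or with pseudogenes cannot be assigned uniquely, so its level is uncertain. Mdm2 stood at 14.9 and Trp53 at 13.5, both among the 10 genes of at least 10, while Mdm4 stood at 6.61. The length used joins all annotated exons of a gene, 14.8 kilobases for Mdm4 and 11.4 for Zmat3, and the order depends on it. In mean CPM, Mdm4 (97.8) was above Mdm2 (75.6) and Trp53 (54.5), and Zmat3 (4.55) was above Cdkn1a (2.58). The 6 genes under 1 were Fas (0.840), Cdkn1a (0.728), Tnfrsf10b (0.711), Plk3 (0.555), Eda2r (0.494) and Zmat3 (0.398). Cdkn1a, which encodes the cell cycle inhibitor p21 and is a standard readout of active p53, was thus in the lowest tier of the list, as were the death receptor genes Fas, Tnfrsf10b and Eda2r. The plot of levels shows this spread, and the 3 groups lay side by side for nearly every gene.

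**Figure D1:**
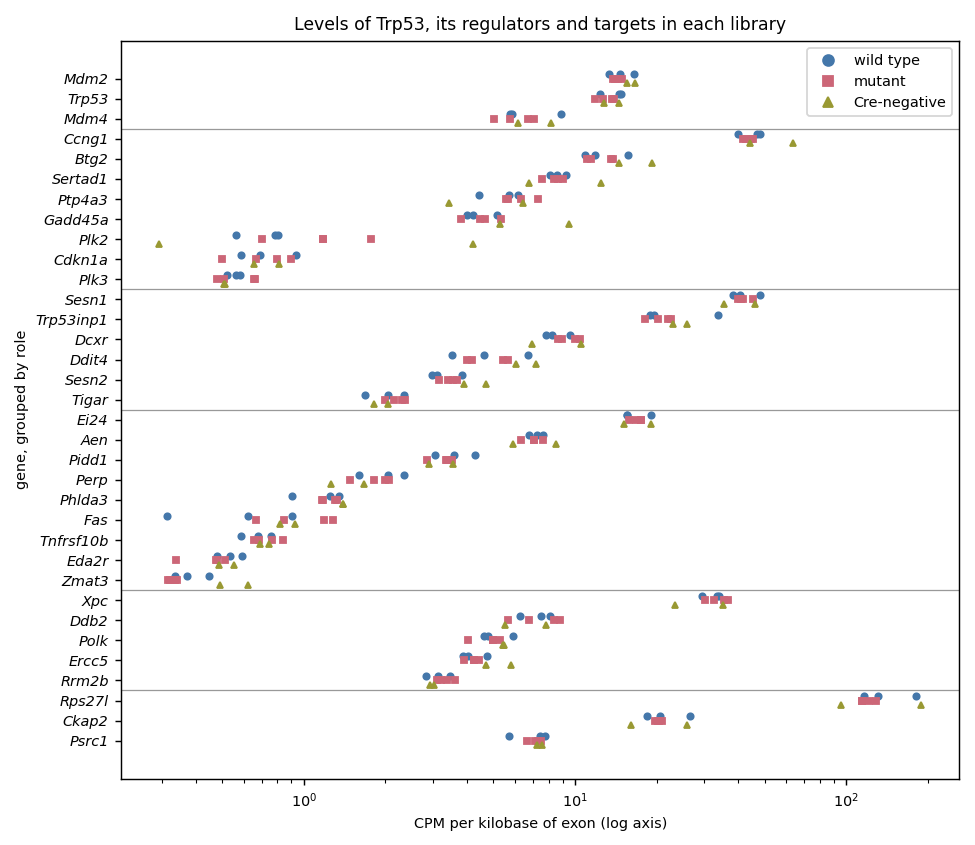
Level of each of the 34 genes in each of the 9 libraries, in CPM per kilobase of exon on a log axis, with genes grouped by role. Rps27l was the most abundant (mean 133) and Zmat3 the least (mean 0.398); the points of Plk2 are the most widely spread.

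Most members varied little between libraries. The highest library was under 2 times the lowest for 29 of 34 genes; the 5 others were Plk2 (14.4 times), Fas (4.10), Gadd45a (2.51), Ptp4a3 (2.14) and Ddit4 (2.05). The SD of log2 CPM within groups, pooled over the 3 groups, had a median of 0.19 over the members and 0.27 over all genes tested. These sets were not matched on level, and the ratio of highest to lowest library was not counted over all genes. The lowest count behind any member was 34 reads (Fas) and the highest 12201 (Ccng1), so counting error is larger for the low genes.

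**Figure D2:**
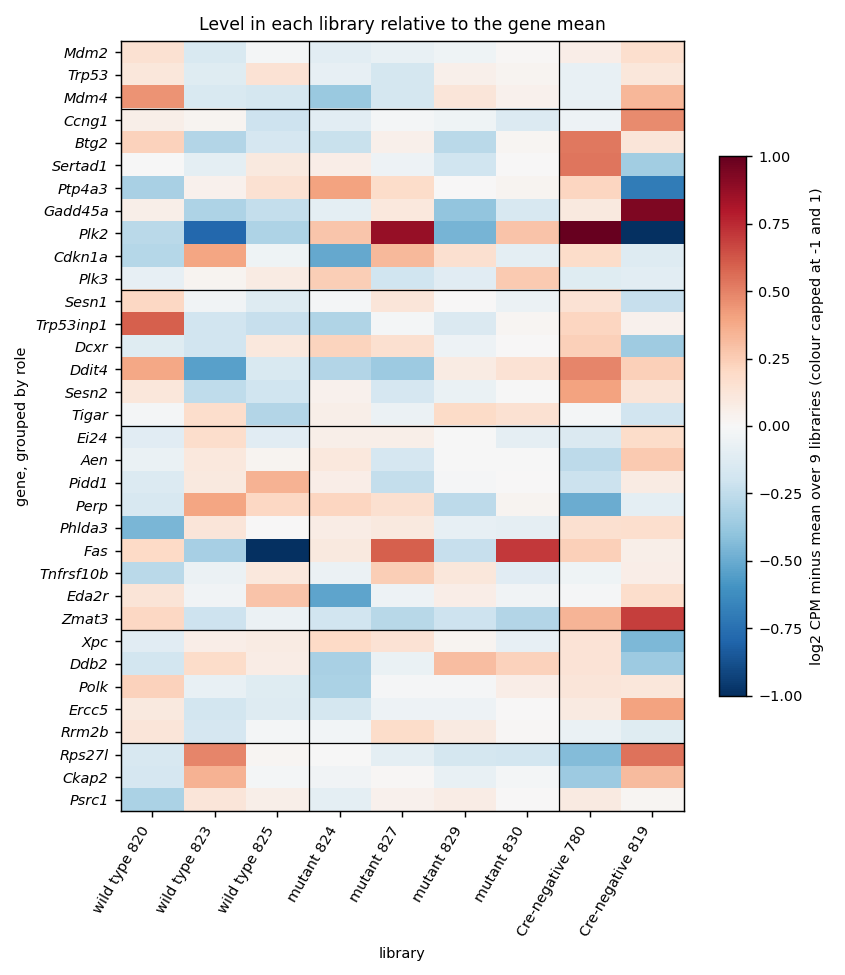
log2 CPM of each gene in each library minus the mean of that gene over the 9 libraries, with red above and blue below the mean and the colours capped at -1 and 1. Plk2 is coloured in opposite directions in the 2 Cre-negative columns (19.0 and 1.32 CPM), and Fas is at the blue cap in wild-type library wt-825 (0.644 CPM).

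Trp53 stood at 58.9, 50.02 and 59.96 CPM in the wild-type libraries wt-820, wt-823 and wt-825, at 51.4, 48.1, 56.2 and 55.3 CPM in the mutant libraries cKI-824, cKI-827, cKI-829 and cKI-830, and at 51.7 and 58.95 CPM in the Cre-negative libraries neg-780 and neg-819. The 3 groups overlapped. The mutant-minus-wild-type log2 difference was -0.09 (SE 0.11, 95% interval -0.33 to 0.15, n = 4 and 3), with an adjusted p of 0.998 in edgeR's quasi-likelihood test. With 1 library left out it ranged from -0.17 to -0.03.

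Mdm2, the ubiquitin ligase that degrades p53 and rises when p53 is active, stood at 83.6, 67.9 and 74.6 CPM in wild type, at 70.3, 71.6, 73.1 and 75.95 CPM in the mutant, and at 78.98 and 84.5 CPM in Cre-negative libraries. The mutant lay inside the wild-type range, and both Cre-negative libraries lay above all 4 mutant libraries. The mutant-minus-wild-type log2 difference was -0.05 (95% interval -0.26 to 0.16), and the mutant-minus-Cre-negative difference was -0.17 (-0.41 to 0.07). Mdm4, the inhibitor that masks the activation domain of p53, stood at 132, 86.6 and 85.5 CPM in wild type, at 74.4, 85.2, 104.8 and 99.4 CPM in the mutant, and at 91.5 and 121 CPM in Cre-negative libraries, with all groups overlapping. Its highest value was that of wild-type library wt-820, and the mutant-minus-wild-type difference of -0.16 (95% interval -0.56 to 0.25) became 0.10 without that library.

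Cdkn1a stood at 2.09, 3.33 and 2.46 CPM in wild type, at 1.78, 3.18, 2.84 and 2.37 CPM in the mutant, and at 2.88 and 2.33 CPM in Cre-negative libraries. The 3 groups overlapped, and both Cre-negative values lay inside the wild-type and mutant ranges. The log2 difference was -0.04 for mutant minus wild type (95% interval -0.62 to 0.53), -0.01 for Cre-negative minus wild type (-0.70 to 0.68), and -0.03 for mutant minus Cre-negative (-0.69 to 0.62). All 3 differences changed sign between alternatives: with limma-voom for mutant minus wild type (0.021) and Cre-negative minus wild type (0.030), with upper-quartile scaling for mutant minus Cre-negative (0.017), and in each when single libraries were left out. Its intervals are wider than those of Trp53, at counts of 89 to 178 reads per library.

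Mutant and wild-type libraries, which both carry Mx1-Cre, differ by the Dnmt3a allele, in a study whose title concerns DNA damage sensing. Between these groups the p53 genes were close in level. No member passed the adjusted p of 0.05 in edgeR (0% of all 18576 genes did), and none had an unadjusted p under 0.05, against 3.17% of all genes (1.86% higher and 1.31% lower). That count was 3 with limma-voom and 1 with the Y-linked term, with only these 2 groups, or without wt-820, neg-780 or neg-819. DESeq2 and limma-voom also called 0 of the 34. The groups were free of overlap for 0 of 34 members, against 8.32% of all genes (4.17% higher and 4.15% lower). The log2 differences were positive for 15 and negative for 19 members, with a median of -0.02 over the members and -0.02 over all genes tested. The 95% interval lay within 1 log2 unit on either side of 0 for 32 of 34 members, all but Fas and Plk2, and within 0.5 for 18. The spread behind these intervals and p-values was estimated from all 9 libraries, the Cre-negative ones included. For Plk2 the Cre-negative libraries stood far apart (19.0 and 1.32 CPM), so its interval here takes in spread from outside the 2 groups compared. The intervals in the plot of fold changes all cover 0 in this comparison.

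Markers of other blood cell types were read beside these values, and none passed the adjusted threshold in mutant against wild type. All 7 neutrophil markers had positive log2 differences in mutant against wild type (median 1.44), none of them free of overlap, and their summed level was 49.96 to 162 CPM in wild type, 132 to 398 CPM in the mutant, against 317 CPM in neg-780 and 38.2 CPM in neg-819. All 7 B cell markers were likewise positive (median 0.90), with sums of 34.6 to 46.6 CPM in wild type and 44.7 to 61.1 CPM in the mutant, as were 5 of 6 monocyte and macrophage markers (median 0.47) and 5 of 5 megakaryocyte markers (0.32). Of 8 erythroid markers 6 were negative (median -0.12), of 6 mast cell and basophil markers 4 were negative (-0.25), and of 5 tested T and NK cell markers 3 were positive (0.38). No neutrophil, B cell or monocyte marker was at 0 in any library. The markers' part in the member values was not tested. In bulk RNA fewer cells of a type and less RNA per cell cannot be told apart.

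The members with the lowest p in this comparison had values as follows. Fas, which encodes a death receptor, stood at 1.86, 1.28 and 0.644 CPM in wild type and at 1.74, 2.45, 1.38 and 2.64 CPM in the mutant, a log2 difference of 0.70 (SE 0.37, edgeR adjusted p = 0.998). The groups overlapped, and the lowest value was that of wild-type library wt-825; the difference was 0.39 without it, 1.12 without wt-820 and 1.33 with limma-voom. Plk2, a polo-like kinase gene that p53 and serum both induce, stood at 3.61, 2.53 and 3.52 CPM in wild type and at 5.29, 7.97, 3.16 and 5.30 CPM in the mutant, a difference of 0.75 (SE 0.65). In 3 of 4 mutant libraries it was above every wild-type library. Immediate early genes had a median log2 difference of 0.29 in the same comparison, with 12 of 15 tested members positive and 0 past the adjusted threshold; their part in the Plk2 values was not tested.

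Zmat3, which encodes an RNA-binding zinc finger protein that p53 induces, stood at 5.12, 3.83 and 4.26 CPM in wild type and at 3.89, 3.66, 3.83 and 3.61 CPM in the mutant (log2 difference -0.23, SE 0.18). Eda2r, the X-linked ectodysplasin receptor gene, stood at 3.15, 2.81 and 3.502 CPM and at 1.997, 2.79, 3.02 and 2.81 CPM (-0.25, SE 0.21). Rps27l stood at 94.8, 147.9 and 107 CPM in wild type and at 105.3, 98.9, 93.5 and 93.1 CPM in the mutant (-0.25, SE 0.21), its highest wild-type value being that of library wt-823. All 3 genes overlapped between the groups, and each value shrank without its most distant library, to -0.09 for Zmat3 without wt-820, -0.11 for Eda2r without cKI-824 (-0.15 without wt-825) and -0.04 for Rps27l without wt-823.

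**Figure D3:**
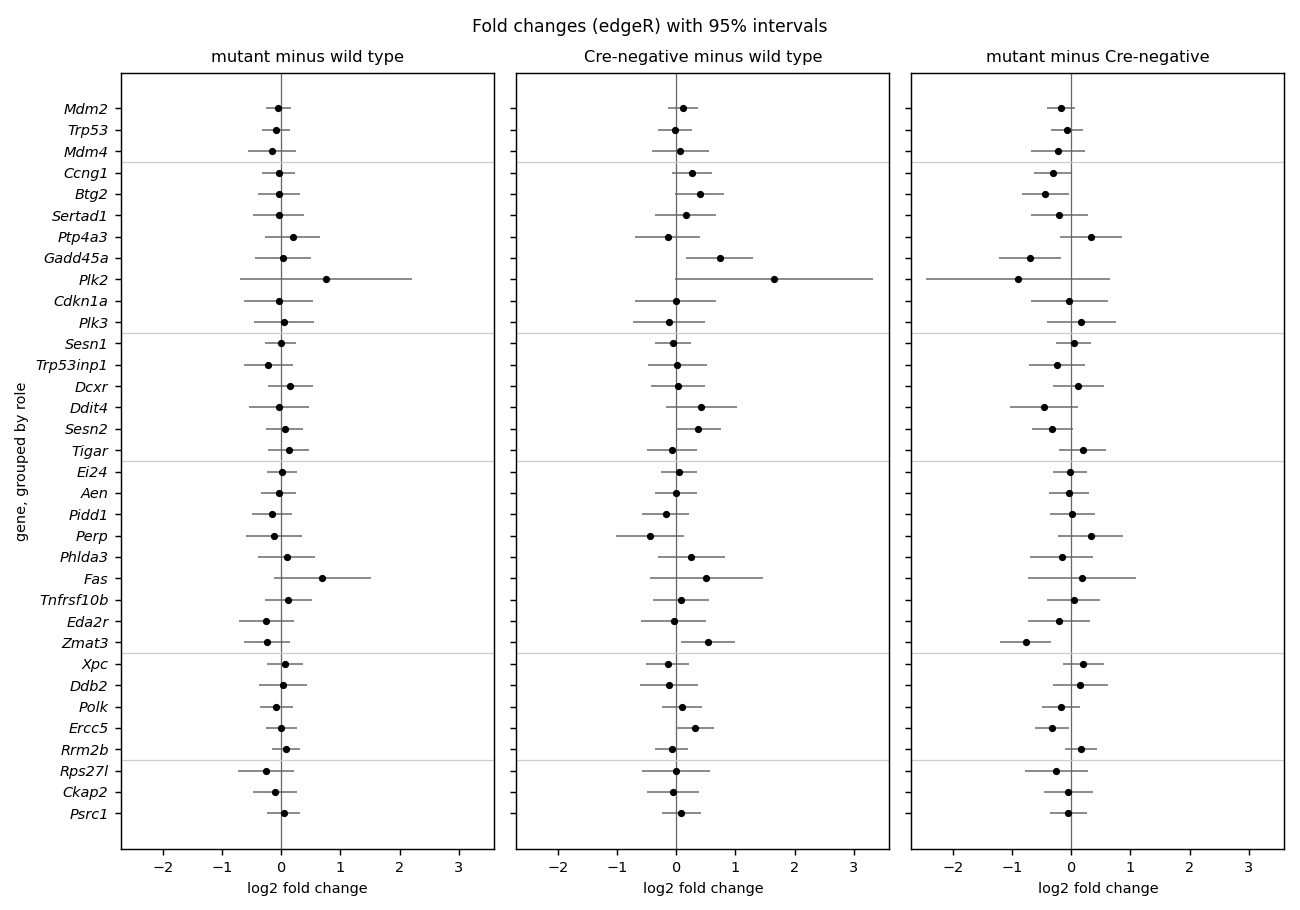
log2 fold changes of the 34 genes in each of the 3 comparisons (points) with 95% intervals (bars) from the edgeR fit to all 9 libraries, genes grouped by role. All intervals of mutant minus wild type cover 0, and Plk2 has the widest interval in each comparison.

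Grouped by role, the mutant-minus-wild-type medians were -0.09 for Trp53, Mdm2 and Mdm4, 0.03 for the 5 DNA repair genes, 0.02 for the 6 stress and metabolism genes, -0.04 for the 9 apoptosis genes, -0.0016 for the 8 cell cycle genes and -0.10 for the 3 mitotic or ribosomal genes. Among the repair genes, Xpc and Ddb2, which recognise ultraviolet lesions, averaged 185 and 20.3 CPM in the mutant against 177 and 19.9 in wild type. Polk, a polymerase that copies past lesions, averaged 26.8 and 28.4 CPM, Ercc5, a repair endonuclease gene, 24.7 CPM in both groups, and Rrm2b, the p53-inducible ribonucleotide reductase subunit gene, 30.4 and 28.7 CPM. None of these pairs differed beyond the spread between libraries. Ddb2 shares exon bases with Acp2 on the other strand, and since the strand setting of the counts is not given in the sources used here, its values are uncertain. The same holds for Gadd45a, Plk3, Ei24 and Tigar.

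Among the stress genes, Trp53inp1, an autophagy and apoptosis cofactor gene, stood at 218 CPM in wild-type library wt-820 and between 117 and 168 CPM in the other 8. That library also held the highest Mdm4, Sesn1 and Polk and the largest share of reads outside annotated features (23.1% of counted reads, against 13.6% to 19.4% in the others), and the part of that share in these values was not tested. Sesn1 and Tigar, a regulator of glycolysis, averaged 167 and 8.07 CPM in the mutant, with 168 and 7.40 CPM for wild type. Dcxr, a carbonyl reductase gene, averaged 10.9 and 9.77 CPM. Ddit4, an inhibitor of mTORC1 signalling that glucocorticoids and hypoxia also induce, stood at 11.8, 6.16 and 8.08 CPM in wild type, 7.33, 7.003, 9.502 and 9.95 CPM in the mutant, and at 12.6 and 10.6 CPM in Cre-negative libraries. Its wild-type range enclosed the mutant range.

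The remaining apoptosis genes had near means in the mutant and, given second, wild type: Aen, a nuclease gene (40.8 CPM and 41.9), Ei24, an autophagy gene of the endoplasmic reticulum (82.2 and 81.1), Pidd1, the scaffold gene of the caspase-2 complex (14.8 and 16.5), Perp, a desmosome and apoptosis gene (3.59 and 3.89), Phlda3, an inhibitor of AKT (1.94 and 1.82), and Tnfrsf10b, the TRAIL receptor gene (4.01 and 3.69). Of the cell cycle genes, Plk3, a stress-responsive polo-like kinase gene, averaged 1.46 and 1.41 CPM, Sertad1, a CDK4 cofactor gene, 11.3 and 11.6, and Ptp4a3, a phosphatase gene, 58.1 and 50.8. The mitotic genes Ckap2 and Psrc1, which encode microtubule-associated proteins, averaged 65.3 and 24.05 CPM in the mutant against 70.06 and 23.4 in wild type. Ckap2 was highest in wild-type library wt-823 (85.0 CPM) and Cre-negative library neg-819 (83.0 CPM), the same libraries in which the summed level of 20 G2 and mitosis genes was highest (5710 and 6110 CPM, against 3288 to 4257 CPM in the others).

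Cre-negative libraries were set against wild type to describe the allele without Cre. Fitted differences were positive for 19 of 34 members and negative for 15, and none passed. EdgeR called 0 of 34 members at an adjusted p of 0.05 (0% of all genes), and DESeq2 and limma-voom called 0. At an unadjusted p under 0.05, 4 members were higher (3.64% of all genes were) and 0 lower (1.59%, together 5.23%). Both Cre-negative libraries lay above all 3 wild-type libraries for 4 members, Gadd45a, Zmat3, Sesn2 and Phlda3, and below for 1, Plk3, against 6.25% and 5.12% of all genes (together 11.4%). The median log2 difference was 0.04 over the members and 0.02 over all genes. The number at an unadjusted p under 0.05 was 0 without wild-type library wt-823 or wt-825, 8 without library wt-820, and 1 without mutant library cKI-830, so it rested on single libraries.

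Gadd45a, a stress sensor gene that halts cells before mitosis, stood at 9.11, 7.07 and 7.42 CPM in wild type and at 9.37 and 16.8 CPM in Cre-negative libraries neg-780 and neg-819, a log2 difference of 0.73 (SE 0.25, edgeR adjusted p = 0.809). Library neg-780 was thus just above the highest wild-type library and below mutant library cKI-827 (9.45 CPM), and the difference rested mainly on library neg-819. Without library neg-780 it was 1.06, with 1 Cre-negative library left, and without library neg-819 it was 0.24. Zmat3 stood at 5.62 and 7.14 CPM in the 2 Cre-negative libraries, above each of the other 7 libraries (0.54, SE 0.21, adjusted p = 0.847), and the difference was 0.34 without neg-819. Sesn2, a stress-induced sestrin gene, stood at 13.4, 10.3 and 10.7 CPM in wild type and at 16.3 and 13.5 CPM in Cre-negative libraries (0.38, SE 0.17); the lower of them was close to library wt-820, and the difference was 0.20 without neg-780.

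Ercc5 stood at 27.7, 22.7 and 23.6 CPM in wild type and at 27.5 and 34.1 CPM in Cre-negative libraries (0.32, SE 0.14, edgeR adjusted p = 0.925), with library neg-780 inside the wild-type range and a difference of 0.14 without neg-819. Plk2 stood at 19.0 CPM in library neg-780 and 1.32 CPM in library neg-819, above and below all other libraries, so the fitted difference of 1.65 (SE 0.76, 95% interval -0.03 to 3.33) averaged values in opposite directions. Without library neg-780 it was -1.32 and without library neg-819 it was 2.54.

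**Figure D4:**
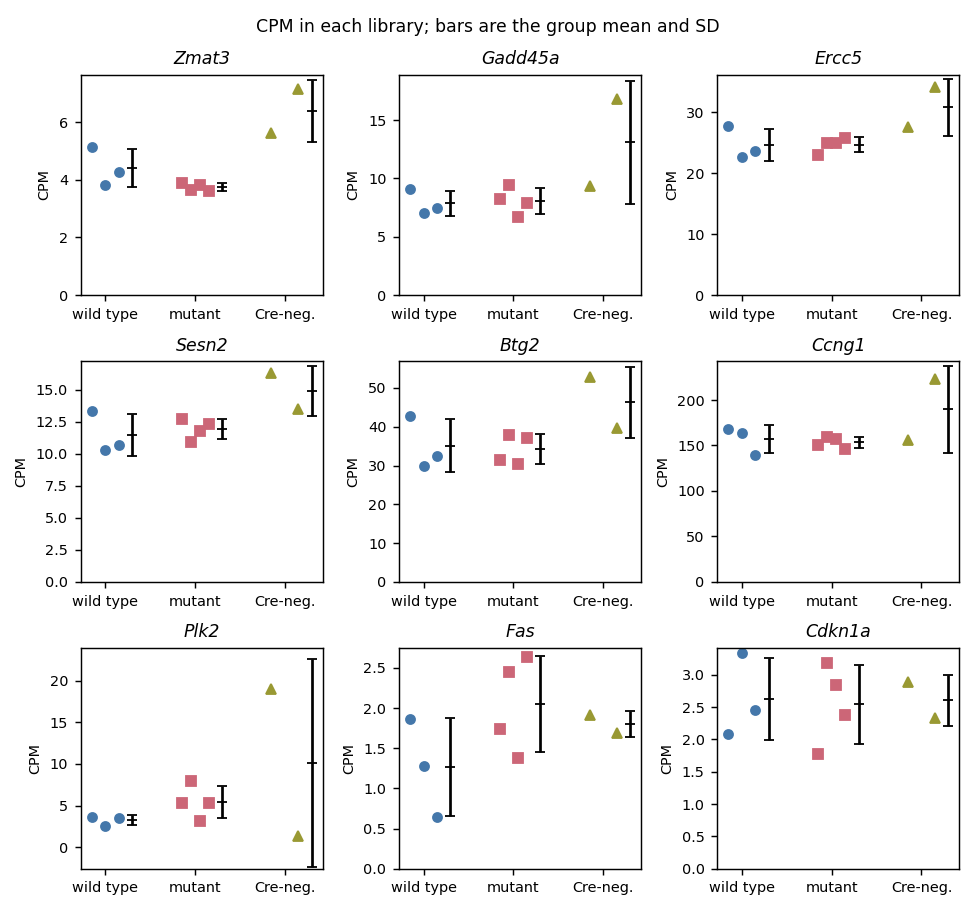
CPM of 9 genes in each library, by group (circles wild type, squares mutant, triangles Cre-negative), with the group mean and SD as black bars to the right of the points. Zmat3 is above the other libraries in both Cre-negative libraries, whereas Gadd45a and Ccng1 are high in 1 of them; the lower SD bar of Plk2 runs below 0.

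Mutant and Cre-negative libraries share the conditional allele and differ by Mx1-Cre, and with it by whether Cre could act on that allele. The presence of Cre and its action on the allele cannot be told apart here. Dnmt3a averaged 160 CPM in the mutant and 106 CPM in Cre-negative libraries. The comparison uses the same 2 Cre-negative libraries as the comparison before. Again 0 of 34 members passed in edgeR (0% of all genes), DESeq2 or limma-voom. At an unadjusted p under 0.05, 4 members were lower in the mutant (3.71% of all genes) and 0 higher (1.55%, together 5.26%). All 4 mutant libraries lay below both Cre-negative libraries for 9 members, Zmat3, Btg2, Ercc5, Sesn2, Ddit4, Mdm2, Polk, Trp53inp1 and Phlda3, where 7.27% of all genes did. They lay above for 1, Rrm2b, where 5.09% of all genes did (together 12.4%). The median difference was -0.06 over the members and -0.03 over all genes tested, with 12 positive and 22 negative.

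Zmat3 had the lowest p of all members in this comparison. It stood at 3.61 to 3.89 CPM in the 4 mutant libraries and at 5.62 and 7.14 CPM in Cre-negative libraries, a log2 difference of -0.77 (SE 0.19, 95% interval -1.20 to -0.34, unadjusted p = 0.00253 and adjusted p = 0.8005 in edgeR). The groups did not overlap, and the wild-type libraries (3.83 to 5.12 CPM) lay between them and overlapped the mutant. Across all alternatives with 1 library left out the difference ranged from -0.88 to -0.55. Gadd45a averaged 8.04 CPM in the mutant and 13.1 in Cre-negative libraries (-0.70, SE 0.24), and mutant library cKI-827 (9.45 CPM) overlapped Cre-negative library neg-780 (9.37 CPM). The Gadd45a difference was -0.19 without neg-819 and -1.01 without neg-780.

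Btg2, an antiproliferative gene that p53 and growth signals both induce, stood at 31.4, 38.0, 30.3 and 37.2 CPM in the mutant and at 52.8 and 39.75 CPM in Cre-negative libraries (-0.43, SE 0.18, edgeR adjusted p = 0.897), while wild type stood at 42.8, 29.9 and 32.5 CPM. The mutant was below both Cre-negative libraries, and the wild-type range covered the lower of them. Ercc5 stood at 22.9, 24.9, 24.9 and 25.9 CPM in the mutant and at 27.5 and 34.1 CPM in Cre-negative libraries (-0.32, SE 0.13). Ccng1 stood at 150.2, 159.5, 156.8 and 146.7 CPM in the mutant and at 155.7 and 223.5 CPM in Cre-negative libraries (-0.31, SE 0.14), with library neg-780 inside the mutant range. These values followed single libraries: without neg-780 Btg2 was at -0.17, and without neg-819 Ercc5 was at -0.13 and Ccng1 at 0.0069. Wild-type Ccng1 was at 168, 164 and 139.8 CPM.

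Without Cre-negative library neg-780, when library neg-819 stood alone for the group and was assumed to vary like the others, 6 members passed in edgeR: Gadd45a, Zmat3 and Ccng1 lower in the mutant, and Plk2, Xpc and Ptp4a3 higher. That fit called 1835 genes in all. Without library neg-819, 0 of 34 members passed, among 9 genes in all. Library neg-819 is the one whose summed erythroid markers stood apart, though not the globin genes among them, and their part in these calls was not tested.

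Library neg-780 and library neg-819 differed in many members, as the plot of their differences shows. Library neg-780 was above all 7 wild-type and mutant libraries for 8 members and below for 5 (22.1% and 20.4% of all genes), and library neg-819 was above for 10 and below for 7 (22.3% and 22.6%). The share of members outside the other libraries was therefore near that of genes at large. For 6 members the 2 libraries lay on opposite sides, against 17.4% of all genes. Plk2, Sertad1 and Dcxr were high in library neg-780 and low in library neg-819, with Sertad1 at 16.8 and 9.12 CPM and Dcxr at 12.0 and 7.97 CPM. Ei24, Aen and Rps27l were the reverse, with Rps27l at 78.3 and 154 CPM and Aen at 34.2 and 49.2 CPM. Only Zmat3, Sesn2 and Phlda3 were above the other 7 libraries in both, where 2.54% of all genes were, and 0 members were below in both.

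**Figure D5:**
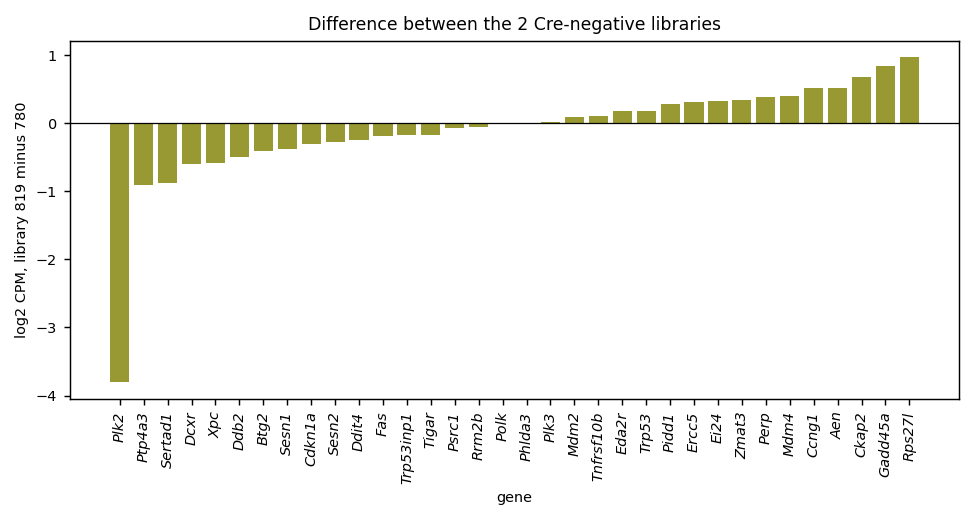
log2 CPM in Cre-negative library neg-819 minus that in library neg-780 for each of the 34 genes, in order of size. The difference was -3.81 for Plk2 and 0.98 for Rps27l.

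Library neg-780 held the highest value of 6 members, where 20.6% of all genes were highest. They were Btg2 (52.8 CPM), Sesn2, Ddit4, Plk2, Sertad1 and Dcxr. The immediate early gene Egr1 stood at 10.3 CPM there, against 0.989 to 5.40 CPM elsewhere. Library neg-819 held the highest value of 9 members, where 21.3% of all genes were highest. They were Gadd45a, Ccng1, Rps27l, Ercc5, Zmat3, Mdm2, Phlda3, Aen and Ei24. The erythroid marker Klf1 stood at 58.8 CPM there, against 3.82 to 9.98 in the others. The proliferation marker Mki67 was at 1400 CPM against 699 to 1035. The 20 G2 and mitosis genes, Mki67 included, summed to 6110 CPM in neg-819 and to 5710 CPM in wt-823. The part of these markers in the member values was not tested.

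The wider p53 pathway was read from further lists. None of 19 tested p53 activators and damage kinases passed in any comparison; 16 had negative log2 differences in mutant against wild type (median -0.12, beside -0.02 over all genes). All 20 G2 and mitosis genes were negative in the same comparison (median -0.14, 0 past the threshold). Both lists had their highest summed levels in neg-819 and wt-823 (3902 and 3796 CPM for the activators) and their lowest in neg-780 (3104 CPM), and the part of proliferation markers in the activator values was not tested. Prkdc, the DNA-dependent protein kinase gene, stood at 145 to 160 CPM in the mutant and 181 to 209 CPM in wild type, without overlap (log2 difference -0.33, SE 0.12, edgeR adjusted p = 0.998). Atm, the kinase that signals DNA breaks to p53, stood at 232 to 240.3 CPM in the mutant and 251 to 285 CPM in wild type, also without overlap (-0.20, SE 0.11). Such lower values without overlap were found for 2 of the 19 activators and 4.15% of all genes. In neg-780 and neg-819, Prkdc stood at 143 and 208 CPM and Atm at 214 and 288 CPM. Ep300 had a lower p than Atm, but its groups overlapped (-0.48, SE 0.23). Cdkn2a, whose Arf product shields p53 from Mdm2, had reads in 2 of 9 libraries, and the p53 relatives Trp63 and Trp73 had reads in 2 each, and these 3 did not pass the filter on low counts.

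The 10 negative regulators of p53 had a median of -0.10 in mutant against wild type, with 7 negative and 0 past the adjusted threshold. Huwe1, a ubiquitin ligase gene, stood at 569 to 664 CPM in the mutant and at 849.9, 672 and 693 CPM in wild type (-0.29, SE 0.13). Further p53 targets split evenly, with 17 of 34 tested positive and a median of 0.0063, and 0 passed. Among them, Dram1, a lysosomal gene of p53-induced autophagy, had the lowest p in this comparison: it stood at 7.52, 5.94 and 9.24 CPM in wild type and at 10.1, 10.97, 11.4 and 12.4 CPM in the mutant, without overlap (0.57, SE 0.19, edgeR adjusted p = 0.998), and at 13.96 and 10.1 CPM in Cre-negative libraries. Bid, the BH3-only gene that links death receptors to mitochondria, stood at 74.9 and 67.9 CPM in Cre-negative libraries, above the other 7 (49.2 to 59.1 CPM), with a mutant-minus-Cre-negative difference of -0.40 (SE 0.12, adjusted p = 0.8005). Gls2, a glutaminase gene, stood at 4.63 CPM in library neg-819 and between 1.49 and 2.67 CPM in the others.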

How the data were processed

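RNA of LSK cells was sequenced from 9 libraries, made with a stranded total RNA kit depleted of ribosomal RNA, per the labels' protocols. The submitters' processing notes list STAR, HTSeq 0.5.3p3 and DESeq2 with the builds mm10 and GRCm38; which annotation and strand setting were used is not given in the sources used here. The authors deposited raw counts per Ensembl gene, which were used as deposited; their scaled table was not used. Of all counted reads, 40.5% to 47.3% fell in 5 rows that name no gene and were left out, among them 21.6% to 28.3% without a unique alignment. Symbols and exon lengths came from GENCODE M21 (GRCm38), which matched 37607 of 39179 identifiers.

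Genes were filtered with filterByExpr and scaled by TMM, and edgeR 4.0.16 (R 4.3.3) fitted 1 mean per group to all 9 libraries with the quasi-likelihood test, two-sided, with Benjamini-Hochberg adjustment over 18576 genes at 0.05. SE is the log2 fold change over the square root of F. CPM uses TMM-scaled totals; single-library log2 values add a prior count of 2. The step was tested on simulated data, in which counts of each gene varied independently, without shifts of whole libraries like those of the Cre-negative libraries. That test therefore cannot say which changes would be found in these data. The members and lists were chosen with earlier results of these data known. Per-library values were given for Trp53, Mdm2, Mdm4 and Cdkn1a, the 5 members of lowest p in each comparison, and the 4 most variable; of other lists, up to 3 genes of lowest p with at least 1 CPM. Further genes, such as Sertad1, Dcxr, Aen, Kit, Trp63, Trp73 and Cdkn2a, were named after their values were seen. Results were recomputed with upper-quartile and RLE scaling, with DESeq2 1.42.0, limma 3.58.1 (voom with quality weights), 2 other filters, only the groups compared, a covariate for Y-linked transcripts, and leaving out each library in turn.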

Additional observations from a re-analysis of the deposited data

How the results depend on the processing

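No member was called in any comparison under 8 alternatives of scaling, tool, filter, samples or covariate; with libraries left out, the count ranged from 0 to 0 for mutant against wild type, 0 to 1 for Cre-negative against wild type and 0 to 6 for mutant against Cre-negative. Over all genes, DESeq2 called 36, 55 and 22 in these comparisons where edgeR called 0, and limma-voom 13, 0 and 0. The median log2 difference of the members moved by more than 0.015 in several fits, the cause of which was not tested. That limit is the pooled SD within groups of each library's median member log2 level, each gene taken relative to its mean. The spread of the median difference itself was not estimated. For mutant against wild type (-0.02) it was 0.0030 with upper-quartile scaling, 0.016 with limma-voom, 0.0033 with the filter of 1 CPM in 4 libraries and -0.0054 with the Y-linked term, and -0.016 to 0.044 with a library left out. For Cre-negative against wild type (0.04) it was 0.020 with RLE, 0.016 with upper-quartile scaling and 0.020 with DESeq2, and -0.0033 to 0.090 with a library left out. For mutant against Cre-negative (-0.06) it was -0.032 with RLE, DESeq2 and the 1 CPM filter, -0.0051 with upper-quartile scaling, -0.037 with limma-voom and -0.021 with only these groups, and -0.11 to -0.020 with a library left out. Signs turned with limma-voom for Cdkn1a (0.021) and Mdm4 (0.076) in mutant against wild type and Cdkn1a (0.030) in Cre-negative against wild type, with the Y-linked term for the latter (0.022), and for Cdkn1a in mutant against Cre-negative with upper-quartile scaling (0.017) and only these groups (0.0031). With a library left out, signs turned for mutant against wild type in Cdkn1a (-0.16 to 0.17), Mdm2 (-0.11 to 0.054) and Mdm4 (-0.25 to 0.10); for Cre-negative against wild type in Cdkn1a (-0.20 to 0.17), Mdm4 (-0.16 to 0.29), Plk2 (-1.32 to 2.54) and Trp53 (-0.14 to 0.035); and for mutant against Cre-negative in Ccng1 (-0.50 to 0.0069), Cdkn1a (-0.15 to 0.18), Mdm4 (-0.37 to 0.022) and Trp53 (-0.11 to 0.059). Groups that do not overlap were counted again without a Cre-negative library, an alternative chosen after seeing the data: with library neg-819 alone 19 members lay below it in the mutant (35.3% of all genes), and with library neg-780 alone 14 (30.2%). No paired analysis was possible because the library numbers differ between groups. Depth limits the low genes most, such as Fas and Cdkn1a.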
